A study of Mus musculus with 36 samples.

Results

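In B3 cells, which are mouse pre-B cells kept as a line, the empty-vector Control line was compared between 0 h and 2 h of 4-hydroxytamoxifen (4-OHT), with all 52788 DNase I hypersensitive sites (DHS) of the table in the comparison. The 6 libraries concerned, 3 at each time, were chosen by their labels from the 36 libraries of the series. Control cells had been transduced with an MSCV retroviral vector that encodes the ERt2 hormone-binding domain and GFP but no Ikaros, were sorted for GFP, and so carry the drug-binding domain alone. The other line of the series carries the same vector with HA-Ikaros fused to ERt2. The labels give 4-OHT at 0.5 uM for every sample, whereas the study's methods say that cells of the 0 h point were left untreated and harvested on their own. The drug, the time in culture and the separate collection therefore cannot be told apart in this comparison. Replicate numbers 4, 5 and 6 stand for batches 11, 12 and 13 at both times.

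DNase I cuts DNA where nucleosomes have been displaced, so a DHS marks an active promoter, an enhancer or another site held open by bound proteins. 4-OHT is an oestrogen receptor ligand that releases ERt2 fusion proteins from heat shock protein complexes and lets them enter the nucleus, and an empty-vector line serves to show what the ligand and the handling do without the fused factor. Pre-B cells depend on the pre-B receptor and on lineage factors such as Pax5 and Ebf1. Promoters of broadly expressed genes are mostly CpG-rich, whereas distal sites are mostly CpG-poor.

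Accessibility is given as the deposited log2 normalised read density, which is per length, and differences are Control 2 h minus Control 0 h on this log2 scale. Library medians lay between 3.96 and 4.11. The depth of each library is unknown from the values. Replicates of a time correlated across DHS with Pearson's r of 0.57 to 0.68 at 0 h and 0.63 to 0.65 at 2 h. The 9 pairs across times lay between 0.54 and 0.75. The study describes its replicates, those of DNase-seq included, as very highly correlated, without naming the kind of correlation. The values found here are lower than it reports, and the reason was not tested. Replicate 6 at 0 h stood apart, with r of 0.54 to 0.63 to the other 5 libraries. In the check of the cell type, 13 of 16 B-lineage marker genes had a promoter DHS (one at most 1000 bp from the transcription start site, TSS, of an annotated transcript), among them Pax5, Ebf1, Igll1 and Cd79a, and none was found for Rag2 or Dntt. A promoter DHS was found for 2 of 10 T-cell, 2 of 10 myeloid, 3 of 8 erythroid and megakaryocyte and 1 of 10 other tissue markers.

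Sequences are shown for 3 of the largest falls and for 3 of the largest promoter rises, because the DHS of the 2 directions differed in CpG content and position. They were read from GRCm38 on the plus strand, 5′ to 3′, and capitals mark CpG dinucleotides. The falls lie at chr10:20777157-20777302 (Gm48651), chr11:75805604-75805734 (Gm12339) and chr11:71557519-71557649 (9230020A06Rik and Gm33351), all in introns. The rises lie at chr13:41250075-41250205 (Smim13), chr7:98655700-98655830 (Emsy) and chr5:31241336-31241591 (Gm9970 and Nrbp1). The 3 falls hold 4, 3 and 2 CpG in the order shown, and the 3 rises hold 20, 6 and 27.
intron of Gm48651: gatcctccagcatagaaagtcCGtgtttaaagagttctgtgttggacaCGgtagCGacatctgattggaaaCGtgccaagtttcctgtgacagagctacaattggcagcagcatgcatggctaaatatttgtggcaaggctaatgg
intron of Gm12339: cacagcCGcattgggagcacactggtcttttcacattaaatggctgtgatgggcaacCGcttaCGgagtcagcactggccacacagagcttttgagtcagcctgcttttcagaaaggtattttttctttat
intron of 9230020A06Rik,Gm33351: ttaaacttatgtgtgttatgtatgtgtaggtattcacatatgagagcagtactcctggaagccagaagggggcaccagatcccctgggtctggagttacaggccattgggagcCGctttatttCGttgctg
promoter of Smim13: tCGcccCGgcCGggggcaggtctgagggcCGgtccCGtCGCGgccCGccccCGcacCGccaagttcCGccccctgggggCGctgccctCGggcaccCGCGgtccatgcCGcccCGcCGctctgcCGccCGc
promoter of Emsy: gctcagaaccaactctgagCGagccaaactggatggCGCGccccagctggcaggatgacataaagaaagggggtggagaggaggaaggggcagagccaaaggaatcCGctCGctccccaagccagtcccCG
promoter of Gm9970,Nrbp1: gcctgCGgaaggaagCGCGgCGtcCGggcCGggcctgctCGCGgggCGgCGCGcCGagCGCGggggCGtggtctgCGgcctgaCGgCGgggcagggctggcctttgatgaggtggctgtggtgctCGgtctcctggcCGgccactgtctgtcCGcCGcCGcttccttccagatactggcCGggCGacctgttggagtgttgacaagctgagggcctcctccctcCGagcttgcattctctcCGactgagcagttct

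To ask which DHS differed between the times, the 2 groups were compared by limma with Benjamini-Hochberg adjustment over all 52788 DHS. At an adjusted p under 0.05, 159 DHS (0.301%) were called, of which 42 (0.0796%) were higher and 117 (0.222%) were lower at 2 h. The rises had a median difference of 0.88 (range 0.61 to 1.65), and the falls had a median of -1.74 (range -3.46 to -0.76). At an unadjusted p under 0.05 there were 3991 higher and 3880 lower DHS, and the median difference of all DHS was -0.01. Across all DHS, 5.02% had all 3 values at 2 h above all 3 at 0 h and 5.5% had them below, and this held for 42 of the 42 rises and 112 of the 117 falls. The calls were made on the same values, so this separation largely follows from the choice and adds no support.

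The count rested on single libraries and on the sharing of the spread. Without replicate 6 at 0 h, the library that correlated least with the others, 3 DHS were called and all 3 were falls. Without replicate 5 at 2 h the count was 934, and without replicate 4 at 0 h it was 612 with 395 rises against 217 falls. A block for the batch, which the replicate number marks, left 89 calls, 20 higher and 69 lower. When only the 6 libraries entered the fit, limma called 0 DHS, with 2629 at an unadjusted p under 0.05. Quantile normalisation left 3 calls, all lower.

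The falls were strong losses of signal at small distal sites. Of the 117 DHS, 55 (47.0%) lay in introns and 51 (43.6%) between genes, against 35.4% and 32.9% of all DHS, and 102 (87.2%) were narrow (at most 200 bp) against 46.1% of all. Their median distance to a TSS was 13415 bp. All narrow DHS outside promoters were much the same in position, with 50.7% in introns, 43.4% between genes and a median distance of 13162 bp. Their median level was 4.02 at 0 h and 2.38 at 2 h, and the replicate SD of these DHS averaged 0.37 at 0 h and 0.77 at 2 h. In 27 of the falls at least 1 value at 2 h was under 0.5, in 6 of them 2 values were, and none had such a value at 0 h. Over all DHS such a value occurred in 1.07% at 2 h and in 0.282% at 0 h, and 98.9% of those at 2 h were narrow.

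The largest fall lay in an intron of Gm48651, a predicted gene, in the first sequence shown. The values of replicates 4, 5 and 6 were 3.62, 3.81 and 4.35 at 0 h and 0.17, 1.28 and -0.04 at 2 h, a difference of -3.46 ± 0.45 (SE; adjusted p = 0.000752 by limma). The intronic DHS of Gm12339 was 3.22, 4.11 and 3.99 at 0 h and 0.64, -0.26 and 1.95 at 2 h (difference -2.99, adjusted p = 0.00771 by limma). At both sites all libraries at 2 h lay more than 1 log2 unit below all libraries at 0 h.

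At the site in 9230020A06Rik and Gm33351 the values were 3.99, 4.00 and 4.20 at 0 h and -0.13, 0.06 and 3.33 at 2 h (difference -2.98), so that replicate 6 at 2 h stayed close to the 0 h level. The DHS 5539 bp from the TSS of 1700049E22Rik (chr6:100521731-100521861) had 2.58, 4.01 and 4.06 at 0 h against 1.98, -0.06 and -0.04 (difference -2.92). At each of these 2 sites 1 library lies near the other group.

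Of the other large falls, the site near Gm5702 (chr1:108363921-108364051) differed by -2.70 and that near Gm43698 (chr5:67360185-67360315) by -2.55. An intron of Cpsf2, a subunit of the complex that cleaves pre-mRNA before polyadenylation, held a DHS (chr12:101994952-101995082) of 3.50, 3.40 and 4.90 at 0 h and 2.24, 2.13 and 0.01 at 2 h (difference -2.47). An intron of Emb, which encodes the membrane glycoprotein embigin, held one (chr13:117242208-117242352) of 4.08, 4.51 and 3.47 against 1.34, 0.60 and 2.75 (difference -2.46). The sites near Gm30784 (chr6:141888381-141888523) and near Coro2b, a coronin that binds actin (chr9:62555613-62555743), differed by -2.44 and -2.43. These were the 10 largest falls among those whose groups did not overlap, and 2 falls with overlapping groups were larger than that near Gm5702. Of the 10, 9 had at least 1 value under 0.5 at 2 h, and the site in Emb was the exception. The adjusted p of all 10 lay between 0.000752 and 0.0417 by limma. With the batch as a block 8 of the 10 kept their call, and the adjusted p became 0.0529 in Cpsf2 and 0.0553 near Coro2b.

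Promoters made up 5 of the 117 falls (4.27%, against 25.9% of all DHS). They were named after their values were seen and belong to H2-DMb1 (-1.81), which helps load peptides on MHC class II molecules, to 1110002J07Rik and Gm26576 (-1.77), to Gm29590 (-1.29), to Gm24325 (-0.99) and to Gm45242 and Tmem192 (-0.91), a lysosomal membrane protein. With the batch as a block the adjusted p was 0.0433 at 1110002J07Rik and 0.0484 at Gm29590, while the calls of H2-DMb1 (0.0593), Gm24325 and Tmem192 (0.0534 each) were lost.

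**Figure D1:**
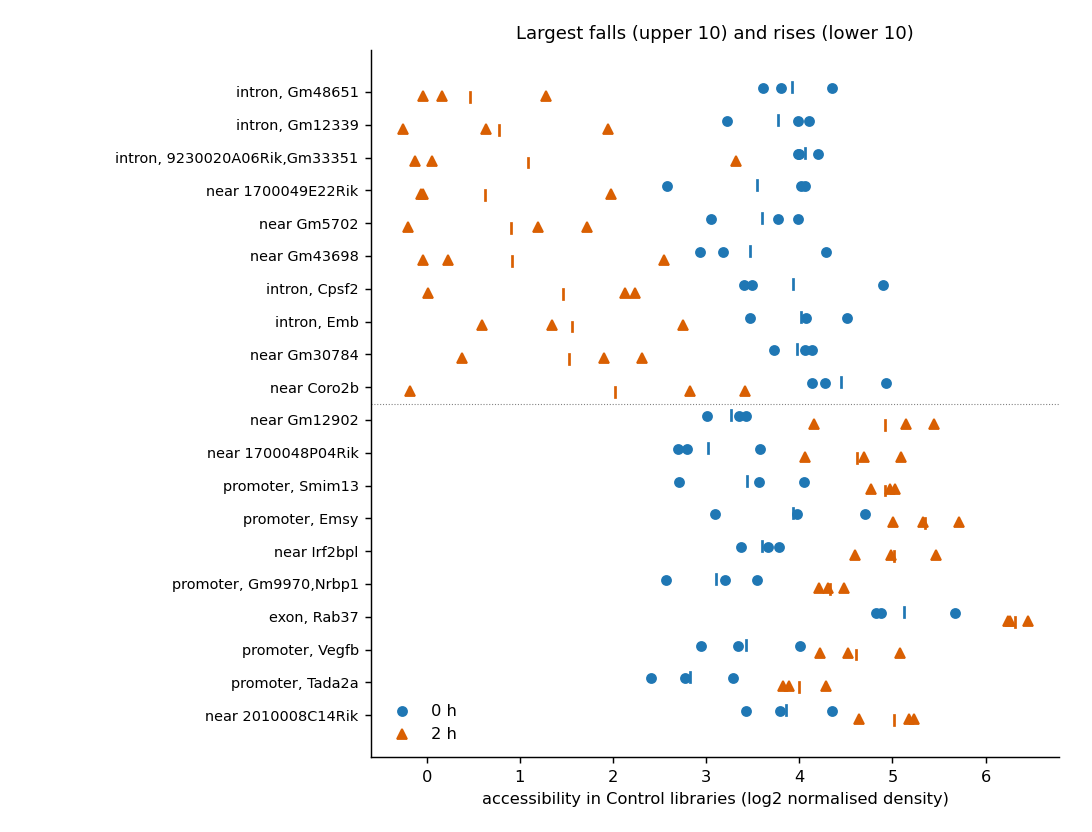
Accessibility (log2 normalised density, horizontal axis) in the 6 Control libraries at the DHS with the 10 largest falls (above the dotted line) and the 10 largest rises (below it) among called DHS whose groups did not overlap. Circles are the 0 h libraries, triangles the 2 h libraries and ticks the group means. The 2 h values of the falls scatter widely, down to -0.26, whereas those of the rises lie closer together.

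The rises were smaller in size, and most were CpG-rich promoters. Promoter DHS made up 30 of the 42 (71.4%), 13 (31.0%) were narrow, and the median GC content was 66.1% against 50.0% of all DHS. The median CpG density was 9.14 per 100 bp in the rises, 0.763 in the falls and 1.53 in all DHS. Promoter DHS as such are rich in CpG, with a median of 6.19 per 100 bp, and the 30 risen promoters had 9.79. The median level of the rises was 4.32 at 0 h and 5.19 at 2 h, and none of the 42 had a value under 0.5.

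The largest rise was a DHS between genes, 31070 bp from the TSS of Gm12902 (chr4:123957304-123957439), with 3.35, 3.42 and 3.01 at 0 h and 5.14, 5.44 and 4.16 at 2 h (difference 1.65 ± 0.33, SE; adjusted p = 0.0273 by limma). The DHS 60167 bp from the TSS of 1700048P04Rik (chr10:68844203-68844333) was 3.58, 2.80 and 2.69 at 0 h and 4.06, 5.09 and 4.70 at 2 h (difference 1.59). As for all named rises, the choice required that the groups not overlap.

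The promoter DHS of Smim13, which encodes a small membrane protein, had 3.56, 4.05 and 2.70 at 0 h and 5.02, 4.77 and 4.98 at 2 h (difference 1.48, adjusted p = 0.0496 by limma). That of Emsy, a transcriptional repressor that binds BRCA2, had 4.71, 3.98 and 3.10 against 5.72, 5.00 and 5.33 (difference 1.42). That of Gm9970 and Nrbp1, a pseudokinase, had 3.55, 3.20 and 2.57 against 4.48, 4.21 and 4.31 (difference 1.23). In these 3 promoters, whose sequences are shown, replicate 6 was the lowest of the 0 h libraries.

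The remaining promoters among the 10 largest rises were those of Vegfb, a growth factor of the VEGF family (chr19:6987673-6987879, difference 1.18), and of Tada2a, an adaptor of histone acetyltransferase complexes (chr11:84129384-84129886, also 1.18). Tada2a had 2.77, 3.29 and 2.41 at 0 h and 4.28, 3.83 and 3.89 at 2 h. The distal sites were those near Irf2bpl (chr12:86888120-86888250, 1.41), in an exon of Rab37, a small GTPase of secretory vesicles (chr11:115160993-115161129, 1.20), and near 2010008C14Rik (chr6:125088965-125089095, 1.16). The adjusted p of all 10 lay between 0.0273 and 0.0496 by limma. With the batch as a block 4 of the 10 kept their call (Vegfb, Rab37 and the sites near Gm12902 and 1700048P04Rik), and the other 6 had adjusted p of 0.0529 to 0.0709.

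Some of the other risen promoters, picked after their values were seen from 30 in all, are those of Rac1 (0.94), a GTPase of the actin cytoskeleton, Dgcr8 (0.88), the partner of Drosha in microRNA processing, and Eif4h (0.83), a translation initiation factor. Rpl5 (0.82) encodes a ribosomal protein, Lsm11 (0.84) a component of the particle that processes histone mRNA, and Polr3e (0.61) and Brf1 (0.85) encode parts of the RNA polymerase III machinery. Under the batch block Dgcr8, Eif4h, Rpl5 and Lsm11 kept their calls, and Rac1 (adjusted p = 0.0568 by limma), Polr3e (0.0675) and Brf1 (0.0706) did not.

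The promoters of the table as a whole stood higher at 2 h relative to distal sites in 2 of 3 batches. Promoter DHS had a median difference of 0.20, with 73.2% of 13657 above 0, and of 0.10 after quantile normalisation and 0.01 with trends in level, GC content and width removed. The medians were -0.10 for intronic, -0.09 for intergenic and -0.06 for exonic DHS. Width went with the difference within each class, since broad promoter DHS had a median of 0.23 and narrow ones 0.06, while narrow intronic DHS had -0.15 and broad ones -0.06. Of the promoter DHS, 0.220% were called higher and 0.0366% lower, and of narrow intergenic DHS 0.0664% were called higher and 0.520% lower.

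Per library, the promoter median minus the median of all other DHS was 0.45, 0.69 and 0.34 at 0 h and 1.03, 0.60 and 0.71 at 2 h in replicates 4, 5 and 6. The difference in means was 0.29 (two-sided exact permutation p = 0.2, adjusted p = 0.25 over 5 measures), where 3 libraries against 3 cannot give a p under 0.1. Within batches it was 0.58, -0.09 and 0.37, so the batch of replicate 5 went the other way and the groups overlapped. The SD over DHS was 0.77, 0.77 and 0.75 at 0 h and 1.07, 0.89 and 0.96 at 2 h, without overlap and higher in 3 of 3 batches (difference 0.21, exact permutation p = 0.1, adjusted p = 0.25). The broad median minus the narrow median was 0.14 at 0 h and 0.27 at 2 h, also without overlap (same exact permutation p and adjusted p). The Spearman correlation of the value with width averaged 0.28 at 0 h and 0.34 at 2 h (exact permutation p = 0.2, adjusted p = 0.25), and that with GC content 0.33 and 0.38 (exact permutation p = 0.6, adjusted p = 0.6). Values thus spread further around similar medians at 2 h, with 0.366% to 1.08% of values under 2 at 0 h and 1.71% to 3.84% at 2 h. The wider spread was not particular to 2 h. The mean SD over DHS in Control cells was 0.76 at 0 h, 0.97 at 2 h and 0.88 to 0.95 from 6 h to 24 h. Promoter minus other medians averaged 0.49, 0.78 and 0.69 to 0.79 in the same order. In Ikaros cells the SD was 0.96 at 0 h and 0.69 to 0.73 later.

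**Figure D2:**
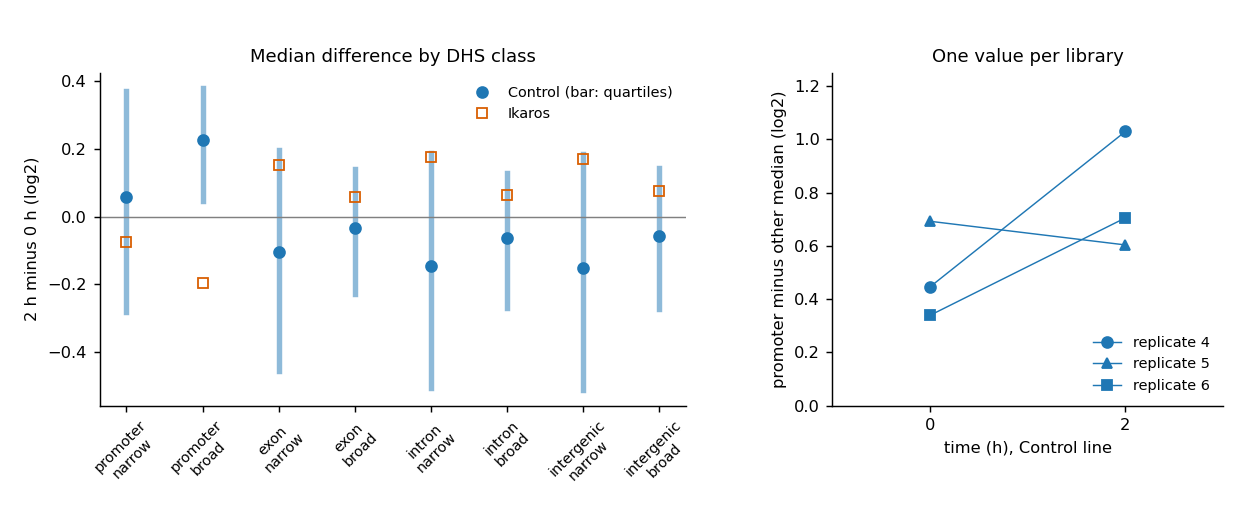
Left, median difference from 0 h to 2 h (log2) of each DHS class in the Control line (circles, with bars from the lower to the upper quartile over DHS) and in the Ikaros line (open squares). Right, the promoter median minus the median of other DHS (log2) in each Control library at 0 h and 2 h, joined by batch. Medians of the 2 lines lie on opposite sides of 0 in every class, and 2 of 3 batches increase in the right panel.

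The difference also followed the level of a DHS. DHS were ranked by their mean over the 18 Ikaros libraries, which are not part of the Control contrast although the authors' noise correction may have used both lines. From the lowest decile to the highest, the median difference went from -0.21 to 0.30, and it exceeded 0 in the highest 3 deciles. The lower 4 deciles held 77 of the 117 falls and 0 of the 42 rises, while the highest 2 deciles held 30 rises and 4 falls. In the decile richest in GC the median difference was 0.29 and 25 rises were called, and in the poorest decile it was -0.12 with 0 rises. Level, GC content, width and promoter position are related to each other, and their separate parts were not tested. When trends with level, GC content and width were removed from each library, 7 DHS were called, 1 higher and 6 lower, all of them among the 159.

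**Figure D3:**
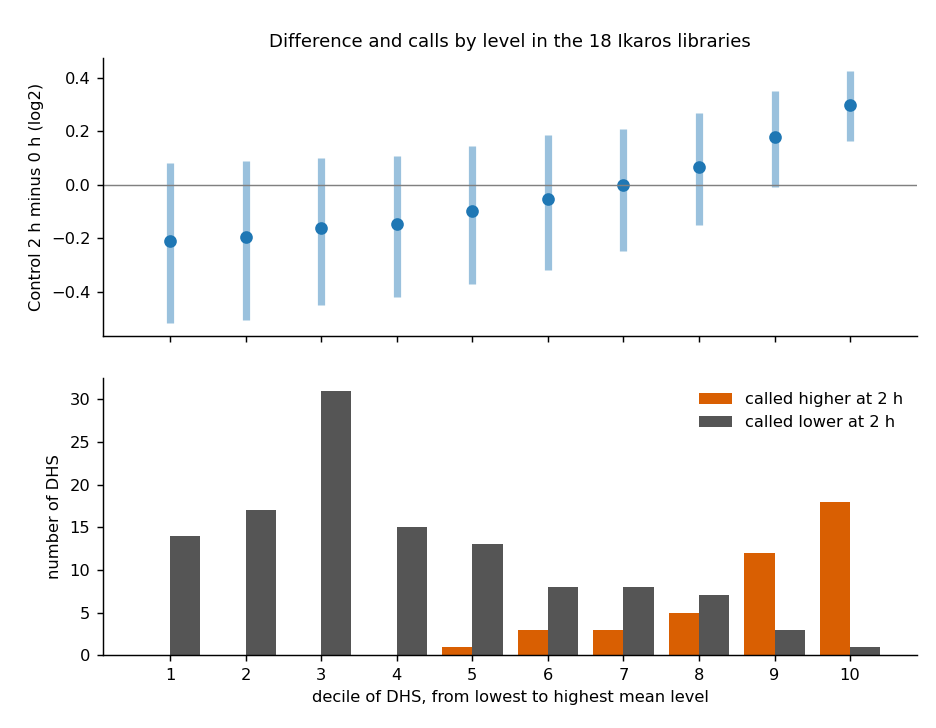
Above, median difference of Control 2 h minus 0 h (log2) with quartile bars, in deciles of the DHS ranked by mean level in the Ikaros libraries. Below, the number of DHS called higher and lower in each decile. The medians go from -0.21 to 0.30, falls are most frequent in the third decile (31) and rises in the highest (18).

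Motifs, 17 in all, were counted on both strands in the 150 bp around the centre of each DHS, as a description of the letters there. The oestrogen response element (GGTCA and TGACC, 3 bases apart) was in 12 of the 52788 DHS and in 0 of the 42 rises and 0 of the 117 falls. The glucocorticoid-type palindrome (GAACA and TGTTC, 3 bases apart) was in 8 of all DHS and 0 of the called ones. The GC box of SP factors (GGGCGGG) was in 38.1% of the rises, 1.71% of the falls, 8.94% of all DHS and 27.8% of all promoter DHS. The AP-1 motif (TGANTCA) was in 6.84% of the falls, 2.38% of the rises and 4.99% of all DHS. Narrow DHS outside promoters, the class of most falls, had it in 6.18%. The RUNX motif (TGTGGTT) was in 15.4% of the falls and 8.29% of all DHS, and the core of the Ikaros motif (TGGGAA) in 18.8% and 13.2%, where narrow DHS outside promoters had 9.70% and 13.95%. The CTCF-type motif (CCANNAG and GGC, 2 bases apart) was in 21.4% of the rises, 19.7% of the falls and 19.6% of all DHS. The ETS motif (CCGGAAG) was in 2.38% of the rises, 0 of the falls, 4.44% of all DHS and 12.4% of all promoter DHS, and in a window of 300 bp it was in 7.14% of the rises and 6.31% of all DHS. Of the stress motifs, the heat shock element (GAA and TTC, 2 bases apart) was in 0 of the rises and 4.27% of the falls, against 3.58% of all DHS. The cAMP response element (TGACGTCA), the sterol element (TCACNCCAC), the NF-kB motif (GGGA and TTCC, 3 bases apart), which can overlap the Ikaros core, and the p53 motif (CATG and CATG, 6 bases apart) were in 0 of the rises and in at most 1 of the falls, where their shares of all DHS, 0.915%, 0.593%, 0.561% and 0.474%, leave room for few. For the B-cell factors, the E2A motif (CACCTG) was in 13.7% of the falls and 13.0% of all DHS, the EBF motif (TCCC and GGGA, 2 bases apart) in 2.56% and 2.50%, and the PU.1 motif (GAGGAAGT) in 7.69% and 4.43%. Narrow DHS outside promoters had the PU.1 motif in 5.16%. The CCAAT box of NF-Y (CCAAT) was in 14.3% of the rises, 17.9% of the falls and 18.3% of all DHS.

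Lists of genes that could respond to the ligand, to growth medium or to stress were followed through their promoter DHS. Against a background of 73.2% of all promoter DHS above 0 and a median of 0.20, 22.1% of them at an unadjusted p under 0.05 and 0.220% called higher, 1 DHS of all the lists passed the threshold. It was the promoter of Fosl2 (chr5:32135498-32136011), which encodes the AP-1 subunit Fra-2. The values were 4.50, 4.47 and 3.98 at 0 h and 4.84, 4.92 and 5.15 at 2 h, without overlap (difference 0.65 ± 0.13, SE; adjusted p = 0.0273 by limma). With the batch as a block the call was kept (adjusted p = 0.0433 by limma), and without replicate 6 at 0 h it was lost, as were all rises.

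Immediate early genes, which serum, stress or fresh medium switch on within minutes, had promoter DHS for 27 of 30 genes. Of their 39 DHS, 37 were above 0, with a median of 0.35, and 1 was called higher and 0 lower. After Fosl2 the smallest p belonged to Dusp5, a phosphatase of ERK kinases (5.46, 5.63 and 5.15 against 6.28, 5.77 and 5.79, adjusted p = 0.0969 by limma). The 39 DHS had a median of 0.23 after quantile normalisation and of 0.07 after trends were removed. The largest value of the list was that of Nr4a2, an orphan nuclear receptor (1.18, adjusted p = 0.276 by limma), named for its size, where replicate 6 at 0 h had 0.20 against 2.87 and 2.95 in the other replicates.

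The 17 heat shock promoter DHS had a median of 0.40, with 16 above 0 and 0 called. The smallest p values were those of the co-chaperones Hsph1 (chr5:149636083-149636606; 5.66, 5.46 and 5.16 against 6.08, 5.81 and 5.67) and Dnaja1 (5.47, 5.31 and 5.00 against 5.93, 5.70 and 5.62), with adjusted p of 0.150 and 0.154 by limma. In both genes all 3 libraries at 2 h lay above all 3 at 0 h, in Hsph1 only just. The median of the list was 0.23 after quantile normalisation and -0.01 with trends removed.

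Genes of cholesterol synthesis and uptake, a pathway that 4-OHT and related drugs are known to act on through sterol isomerase binding, had promoter DHS for 25 of 26 genes. Of 29 DHS, 28 were above 0 with a median of 0.29, and 0 were called. Dhcr7, the last enzyme of the pathway, had 4.90, 4.82 and 4.46 at 0 h and 5.20, 5.41 and 5.28 at 2 h, without overlap (difference 0.57, adjusted p = 0.0741 by limma). Sc5d, a sterol desaturase, had 4.00, 3.62 and 3.46 against 4.59, 3.92 and 4.61 (difference 0.68, adjusted p = 0.147). The median was 0.11 after quantile normalisation and -0.05 with trends removed.

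Of the oestrogen receptor genes and targets, 10 of 21 had promoter DHS, and of 13 DHS 7 were above 0, with a median of 0.04 and 0 calls. The median was 0.05 after quantile normalisation, against 0.10 for all promoter DHS, and -0.12 with trends removed. Xbp1, a transcription factor of the unfolded protein response, had 4.77, 5.29 and 3.82 at 0 h and 5.67, 5.55 and 4.84 at 2 h (difference 0.72, adjusted p = 0.213 by limma). Esr2, the oestrogen receptor beta gene, had 3.16, 3.50 and 2.86 against 2.61, 2.72 and 2.74 (difference -0.48, adjusted p = 0.375 by limma). No promoter DHS was found for Greb1, Pgr, Tff1 or Ccnd1.

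The p53 targets had a median of 0.23 over 17 DHS, 14 of them above 0, and 0 calls, and with trends removed the median was -0.07. The promoter of Bbc3, the pro-apoptotic gene of Puma, was 4.12, 4.20 and 4.40 at 0 h and 5.22, 4.95 and 4.65 at 2 h, without overlap and just outside the threshold (difference 0.70, adjusted p = 0.0549 by limma). Trp53inp1 had a difference of 0.53 (adjusted p = 0.172). In the list of unfolded protein and amino acid stress, 20 of 26 DHS were above 0 with a median of 0.18 (-0.01 with trends removed) and 0 calls, led by Edem1, which directs misfolded proteins to degradation (0.72, adjusted p = 0.138), and Ddit3, which encodes the stress factor CHOP (0.54, adjusted p = 0.186).

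Of the Nrf2 list, 18 of 22 DHS were above 0 with a median of 0.30 and 0 calls, and the median was 0.20 after quantile normalisation and 0.05 with trends removed, where 12 were above 0. Keap1, the inhibitor of Nrf2, had 4.45, 3.96 and 4.57 at 0 h and 5.46, 4.83 and 4.75 at 2 h (chr9:21239183-21239313, difference 0.69, adjusted p = 0.0924 by limma), and Txn1, thioredoxin, differed by 0.77 (adjusted p = 0.101). Of 16 drug handling genes 7 had promoter DHS, with 7 of 11 DHS above 0, a median of 0.14 (0.07 with trends removed) and 0 calls. The lead there was Tiparp, a target of the aryl hydrocarbon receptor, with 4.47, 3.78 and 3.46 against 5.30, 4.97 and 4.59 (difference 1.05, adjusted p = 0.0954). Por, the reductase that serves cytochromes P450, differed by 0.52 (adjusted p = 0.222).

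Cell type markers had 0 called DHS. The 15 B-lineage DHS had a median of 0.21, close to that of all promoter DHS, with 11 above 0, but the median was -0.06 after quantile normalisation and with trends removed. Pou2af1, a coactivator of octamer-binding factors in B cells, led with 0.78 (chr9:51213509-51213693, adjusted p = 0.124 by limma) and 0.53 (chr9:51212960-51213489, adjusted p = 0.209 by limma). Among T-cell genes Gata3 differed by 0.67 (adjusted p = 0.130) and Lck by 0.23, among myeloid genes Fcgr1 by -0.09 and Lyz2 by 0.04, and among erythroid and megakaryocyte genes Pf4 by -0.17. The 1 DHS of other tissues, at Col1a1, differed by -0.65 (adjusted p = 0.0900).

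The study's RT-PCR markers of Ikaros action and its DNase I titration loci had 12 promoter DHS for 8 of 11 genes, with 0 calls. Foxo1, a transcription factor of quiescence and differentiation, had 4.04, 3.90 and 3.74 at 0 h and 4.09, 4.86 and 5.41 at 2 h (difference 0.89, adjusted p = 0.115 by limma). Myc had 4.85, 4.91 and 4.69 against 5.36, 5.07 and 5.01 (difference 0.33, adjusted p = 0.270), and Igll1, a surrogate light chain gene, differed by 0.33 (adjusted p = 0.455). The 3 DHS of Lig4, a DNA ligase of end joining, differed by 0.46, 0.46 and -0.39. The glycolytic genes Ldha (0.24 and -0.19) and Hk2 (0.14 and 0.01) and the transporter gene Slc7a5 (0.15) had adjusted p of 0.587 or more. Ap2a1, a titration locus that was among the most accessible of these promoters, differed by 0.54 (adjusted p = 0.280). No promoter DHS was found for Ikzf1, although the study titrated DNase I on it as an accessible promoter, nor for Myog and Myod1, its inaccessible loci.

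**Figure D4:**
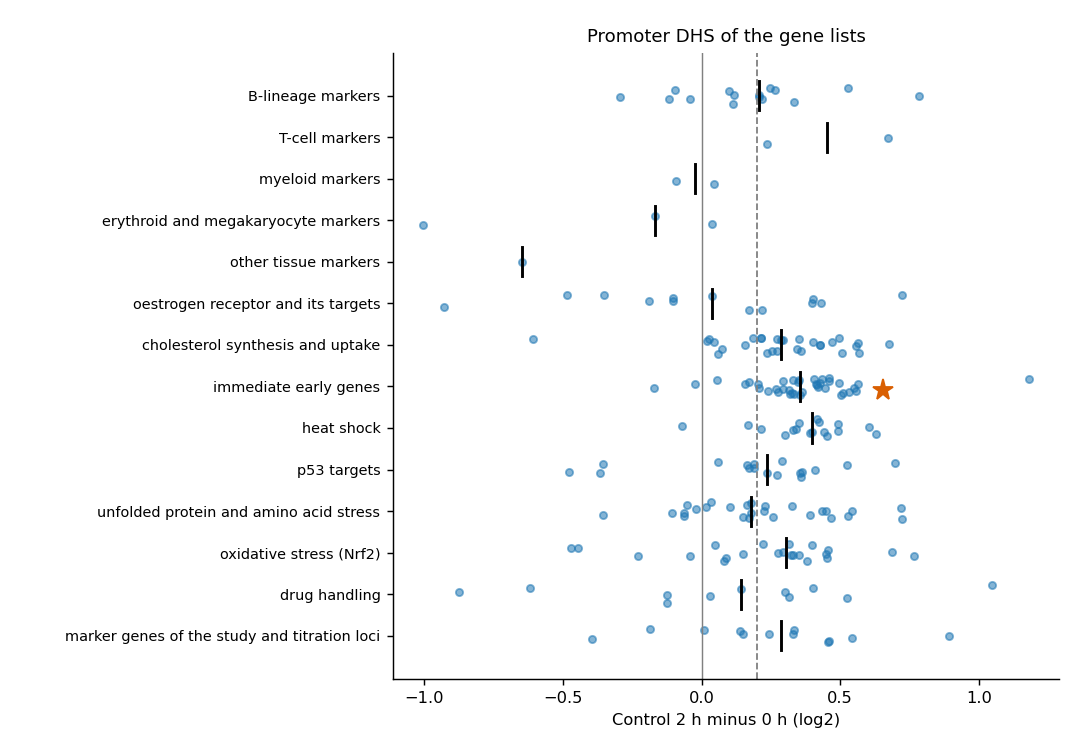
Difference of Control 2 h minus 0 h (log2, horizontal axis) for each promoter DHS of the gene lists (points), with the median of each list (black bar) and of all promoter DHS (dashed line, 0.20). The star is Fosl2 (0.65), the 1 DHS past the threshold. The list medians run from -0.65 for the 1 DHS of other tissue markers to 0.45 for the 2 of T-cell markers, and those of immediate early genes, heat shock and cholesterol genes are 0.35, 0.40 and 0.29.

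The change of the Control line was set beside that of the Ikaros line, where 4-OHT brings Ikaros to the nucleus. Promoter DHS had a median change of 0.20 in Control and of -0.17 in Ikaros cells, and narrow intronic DHS had -0.15 and 0.18. The lines already stood apart at 0 h. Library medians over promoter DHS averaged 4.45 in Control and 4.80 in Ikaros cells at 0 h, and 4.63 and 4.59 at 2 h. What part the 0 h levels have in the opposite changes was not tested. The difference of the 2 changes was tested per DHS by limma, and 44 DHS (0.0834%) passed an adjusted p of 0.05, with the Control change higher in 25 and lower in 19. Of these, 10 were also called higher and 6 called lower in the Control contrast, with which the test shares its libraries. With the batch as a block 16 were called, without replicate 6 at 0 h of the Control line 0, and without replicate 5 at 2 h of the Ikaros line 0. The interaction of Fosl2 passed (Ikaros change -0.34, adjusted p = 0.0317 by limma).

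The largest negative interaction was again the intron of Gm48651 (-3.46 in Control, 0.63 in Ikaros cells, adjusted p = 0.0136 by limma). The DHS near Fam89a (chr8:124739378-124739513) had 3.96, 3.88 and 4.33 at 0 h and 2.13, 2.09 and 2.60 at 2 h in Control cells (-1.79) and a change of 1.18 in Ikaros cells (adjusted p = 0.0136). That near Dmkn (chr7:30758882-30759022) differed by -1.75 in Control and 0.93 in Ikaros cells (adjusted p = 0.0317). The block kept these 3 calls, with adjusted p of 0.0333, 0.0333 and 0.0466 by limma. The largest positive interactions were near 2010008C14Rik (1.16 and -0.59, adjusted p = 0.0448), at the promoter of AC061963.1 and Kmt2a, a histone methyltransferase of H3K4 (chr9:44881250-44881777, 0.58 and -1.01, adjusted p = 0.0384), and near Stk11, which encodes the kinase LKB1 (chr10:80114673-80114759, 1.13 and -0.42, adjusted p = 0.0448). These 3 calls were lost with the block (adjusted p = 0.0643, 0.0565 and 0.0643 by limma). The lines differed at 0 h at such sites too. Near Fam89a the Control and Ikaros means were 4.06 and 2.49 at 0 h, and 2.27 and 3.67 at 2 h. At the promoter of AC061963.1 and Kmt2a they were 4.33 and 5.82 at 0 h, and 4.90 and 4.80 at 2 h.

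The levels of the called DHS were also read at the later times, whose libraries are not in the contrast but did enter the shared spread of the fit. Over the 42 rises the library medians of the Control line averaged 4.30 ± 0.22 at 0 h and 5.19 ± 0.04 at 2 h (SD, n = 3). They were 4.87 ± 0.12 and 4.84 ± 0.12 at the 6 h and 24 h points (SD, n = 3). In the Ikaros line they were 5.11 ± 0.07 at 0 h and 4.87 ± 0.10 at 2 h (SD, n = 3). Over the 117 falls the Control values were 4.07 ± 0.18 at 0 h and 2.40 ± 0.05 at 2 h (SD, n = 3). At the 6 h and 24 h points they were 3.54 ± 0.09 and 3.59 ± 0.07 (SD, n = 3). The Ikaros values were 3.60 ± 0.02 at 0 h and 3.69 ± 0.08 at 2 h (SD, n = 3). The Control 0 h and 2 h values chose these DHS and are a description, and that they lie apart from the others follows from this choice.

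**Figure D5:**
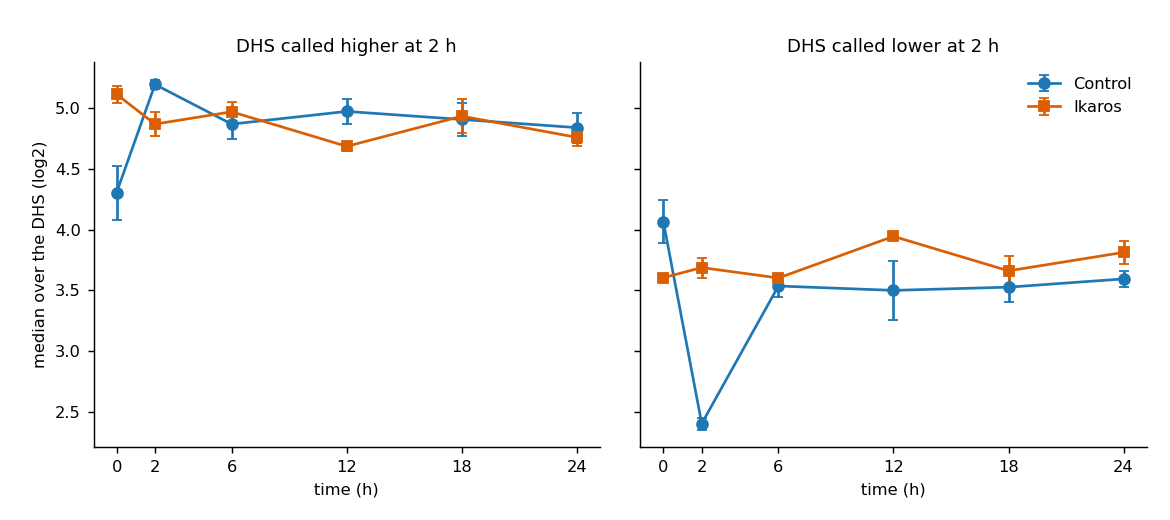
Median accessibility (log2) over the 42 DHS called higher (left) and the 117 called lower (right) at 2 h in Control cells, at all times in the Control (circles) and Ikaros (squares) lines. Points are means of 3 library medians and bars are SD. From 6 h on, the Control libraries lie between their 0 h and 2 h levels in both panels.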

How the data were processed

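DNase-seq of 36 libraries (2 lines, 12 groups of line and time, 3 replicates per group) was deposited as 1 table of log2 values over 52788 DHS. According to the study's methods, the authors trimmed the reads, mapped them to mm10 with Bowtie2 (the labels name Bowtie), called narrow and broad peaks per replicate with HOMER, merged those found in all replicates of a time into consensus DHS, counted reads with bedtools, removed low DHS, scaled the counts to RPKM and by TMM, and removed structured noise with ARSyN before the log2 values were deposited. Which libraries entered ARSyN together is not given in the sources used here. Removing noise estimated from the same libraries can make the spread between replicates too small and tie the groups to each other. The log base is not written in the table. Read back from base 2, values times DHS length summed to 369487 to 432755 RPM per library, so base 2 was used. Depth cannot be read from the values, and no counting interval is given. All columns belonged to a sample (0 others).

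Groups were taken from the labels. The replicates are separate time courses per the methods. The 12 group means were fitted by limma 3.58.1 (R 4.3.3) with a trended prior, and p-values were adjusted by the Benjamini-Hochberg method over all DHS with a threshold of 0.05. Measures with 1 value per library were tested by two-sided exact permutation (scipy 1.17.1). Replicate numbers pair the libraries because the labels tie each number to a batch. Deviations from the group means of same-numbered 0 h and 2 h libraries correlated with r of -0.120, -0.090 and -0.016, so they did not deviate together. DHS were annotated with GENCODE on GRCm38. Of all DHS, 25.9% lay within 1000 bp of a TSS, and 7.76% did after a shift by 10000 bp. Coordinates are printed as in the table, which does not state whether starts count from 0 or 1. Scripts were tested on simulated data with known changes.

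The members and lists were chosen with earlier results of these data known. Named DHS are the 10 largest called differences in each direction without overlap of the groups, in each gene list up to 6 promoter DHS past the threshold or else the 2 of smallest p, the 3 largest interactions in each direction, and the promoters of the study's markers and titration loci. Alternatives changed the samples in the fit, the spread, the block, the scaling, the low filter, the pseudocount, the prior and the libraries. Times after 2 h served for the shared spread, the levels of called DHS and the group means of the per-library measures. They also entered the ranking by level in the Ikaros libraries, and the scaling, trends and low filter of the alternatives.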

Additional observations from a re-analysis of the deposited data

Results flagged for a closer look

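The change from 0 h to 2 h differed between the Control and the Ikaros line at 44 DHS by the interaction test of limma. The count was 16 with the batch as a block, and 0 without replicate 6 at 0 h of the Control line. The largest negative values of the Control change minus the Ikaros change were -4.09 in the intron of Gm48651, -2.97 near Fam89a and -2.68 near Dmkn (log2). The largest positive values were 1.75 near 2010008C14Rik, 1.59 at the promoter of AC061963.1 and Kmt2a and 1.56 near Stk11. At the Fosl2 promoter the value was 1.00, with adjusted p = 0.0495 by limma with the batch as a block. These 7 sites share the Control libraries of the main comparison. What part differences between the lines at 0 h have in these values was not tested. Groups of 3 libraries were not searched for outlying samples.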

How the results depend on the processing

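The 159 calls between 0 h and 2 h became 0 with only the 6 libraries in the fit (2629 at an unadjusted p under 0.05), 1 with the 18 Control libraries, 1 with a separate spread per group, 89 with the batch as the replicate block, 3 after quantile normalisation, 7 with trends removed and 83 without the lowest 25% of DHS. They were between 110 and 155 with library medians subtracted, a pseudocount of 1, no trend in the prior or a robust prior. Library medians subtracted gave 31 higher and 79 lower, and this filter gave 36 and 47. Leaving out libraries gave 3 to 934 calls. The count was 612 without Control 0 h replicate 4, 336 without its replicate 5 and 3 without its replicate 6, 934 and 459 without Control 2 h replicates 5 and 6, and 242, 251 and 32 without replicates 4, 5 and 6 at all times.

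The 44 interaction calls became 0 with only the 4 groups (5514 at an unadjusted p under 0.05), 0 with a spread per group (6262 at an unadjusted p under 0.05), 16 with the block, 5 after quantile normalisation, 20 with medians subtracted, 2 with trends removed, 253 without the lowest 25% of DHS and 20 with no trend in the prior, and 0 to 1938 when libraries were left out. Without Control 0 h replicates 4, 5 and 6 it was 74, 1496 and 0, without those of Control 2 h 21, 1938 and 600, without those of Ikaros 0 h 3, 152 and 418, without those of Ikaros 2 h 2, 0 and 6, and without each number at all times 0, 108 and 18. For these counts the cause was not tested, apart from the smaller number of libraries or DHS in some fits.

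None of the called DHS that are named or lie in promoters (50 in the Control contrast, 7 in the interaction) reversed. Leaving out Control 0 h replicate 6 ended 49 of the 50, as did quantile normalisation, a spread per group and a fit of the 18 Control libraries. The block ended 23 of the 50 and 3 of the 7, those given in the report among them, and changed no other call of a named DHS. Uncalled promoters that passed the threshold in at least 1 fit without a library or replicate number included those of Pou2af1, Col1a1, Dhcr7, Sc5d, Bbc3, Txn1, Tiparp and Foxo1.

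Of uncalled promoters, Fcgr1 had 0.022 after quantile normalisation, 0.088 with trends removed and -0.43 to 0.17 without single replicates. Pf4 had 0.043, 0.13 and -0.37 to -0.019 in the same order. Hk2 had -0.069, -0.16 and -0.00407 to 0.37 at chr6:82774250-82774826, and -0.15, -0.13 and -0.25 to 0.26 at chr6:82773519-82773649. With trends removed Ldha had -0.044 at chr7:46845511-46846049 and Slc7a5 -0.17. Without single replicates these lay at -0.00625 to 0.44 and -0.17 to 0.44, Ldha at chr7:46846781-46847281 at -0.33 to 0.042, Lyz2 at -0.29 to 0.36 and Lig4 at chr8:9975413-9975498 at -1.05 to 0.71. The change in the Spearman correlation with GC content was 0.0459, and -0.00824 to 0.114 without single libraries. The other per-library measures kept their sign when single libraries were left out. After quantile normalisation, which was not applied to the SD over DHS, the promoter, broad-minus-narrow and width measures kept theirs, as did the promoter measure with distances of 500 and 2000 bp and the broad-minus-narrow measure with a width limit of 300 bp. In windows of 300 bp the GC box was in 59.5% of the rises and 2.56% of the falls, against 13.3% of all DHS. All promoter DHS had it in 39.5% and narrow DHS outside promoters in 3.52%. The Ikaros core was in 14.3% of the rises and 32.5% of the falls, against 24.7% of all DHS and 25.8% of narrow DHS outside promoters.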
